A study of Mus musculus with 2 samples.

Results

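The rodent miRNA cluster inside Sfmbt2 was examined in the small RNA of the fetal mouse intestine. Its members were chosen by position: every miRNA gene of the GENCODE annotation that lies wholly within Sfmbt2 on chromosome 2, on the strand of Sfmbt2, and that has an entry in the count table of both libraries. Of 119 such genes 107 had an entry, among 1973 genes counted in all. The rule used no measured value, but it was set with earlier results of these data known. By name, 5 belong to the Mir297 family, 20 to Mir466, 14 to Mir467 and 20 to Mir669, and 48 carry a provisional Gm symbol with no family name.

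The libraries are microRNA-seq libraries, made from RNA under 30 nucleotides, of healthy B6NCrl embryos at embryonic day 16.5. B6NCrl is a C57BL/6 strain with no genotype or treatment given, and male and female embryos were pooled. The labels name the 2 libraries biological replicates 1 and 2 of 1 group, so the design holds no contrast. The tissue pool of replicate 2 came from 41 embryos. The number of embryos behind replicate 1 is not stated.

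MicroRNAs are cut from hairpin transcripts, first in the nucleus by Drosha and then in the cytoplasm by Dicer, and the mature strand guides Argonaute to messenger RNAs that pair with its seed, the bases near its 5′ end. Sfmbt2 encodes a Polycomb-group protein and is imprinted, with expression from the paternal allele in the early embryo and placenta. Its large miRNA cluster is found in rodents, arose by repeated local duplication of hairpins rich in TG and CA repeats, and is best known for its abundance in trophoblast and embryonic stem cells.

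The mouse genome build was mm10. Sfmbt2 (ENSMUSG00000061186) spans chr2:10370510-10595253 on the plus strand. All 119 miRNA genes lie in a single intron of 62472 bases, chr2:10461473-10523944, which is intron 10 of one annotated transcript and intron 11 of the other that spans it, each of 23 exons. The cluster covers 52993 bases of it, chr2:10465287-10518279, with a median of 294 bases from the start of one hairpin to the start of the next. The Sfmbt2 messenger RNA itself is longer than the RNA sequenced and was not measured.

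Sequences show how repetitive these families are. In the RefSeq table of mature miRNAs (GRCm38.p6), 0 of the 107 members and 8 of the 10 genes of the same families outside Sfmbt2 were matched. The 8 mature sequences are printed because they spell out the TG and CA repeats common in these families; capitals mark the seed, bases 2 to 8, and no seed is shared between any of them.
mmu-miR-466i-3p: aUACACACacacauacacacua
mmu-miR-466j: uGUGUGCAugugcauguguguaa
mmu-miR-466k: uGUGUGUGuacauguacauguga
mmu-miR-466q: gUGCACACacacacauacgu
mmu-miR-467f: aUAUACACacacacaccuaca
mmu-miR-467g: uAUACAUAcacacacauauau
mmu-miR-467h: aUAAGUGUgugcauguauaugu
mmu-miR-669n: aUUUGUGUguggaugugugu

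The letters of 6 of these 8 seeds stood in at least 25.2% of the hairpins of the cluster, although none of the 8 whole sequences occurred in any member. The seed of miR-467g was found in the hairpins of 66 members (61.7%), against 3.36% of 1787 other miRNA genes with a hairpin sequence. The seeds of miR-466j and miR-466i-3p were found in 52 (48.6%) and 51 (47.7%) members, against 2.18% and 5.43% of the others. The seeds of miR-466k, miR-466q and miR-467f occurred in 38, 30 and 27 members, and those of miR-669n and miR-467h in 10 and 1. A match means that the 7 letters stand somewhere in the hairpin on its own strand, not that they form a seed there.

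The transcripts whose intron holds the cluster start at chr2:10372436 and chr2:10372450, and the RefSeq promoter window at that start, chr2:10372186-10372485 (GRCm38.p6, plus strand), is printed as the sequence next to which the host transcription unit begins. Capitals mark its CG dinucleotides.
Sfmbt2: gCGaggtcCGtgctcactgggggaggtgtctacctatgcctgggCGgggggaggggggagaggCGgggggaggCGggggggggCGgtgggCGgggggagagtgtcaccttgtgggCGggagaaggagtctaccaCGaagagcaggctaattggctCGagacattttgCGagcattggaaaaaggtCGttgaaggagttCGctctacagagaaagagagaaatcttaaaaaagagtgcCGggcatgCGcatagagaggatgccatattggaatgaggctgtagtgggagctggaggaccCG
It holds 16 CG dinucleotides at a GC content of 60.0%, and 33.0% of 32851 promoter windows of the same length hold at least as many (median 7). No assay in these libraries reads its activity or its methylation.

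Sequencing gave 8747512 reads in replicate 1 and 10876035 in replicate 2, and 4261976 (48.7%) and 5680764 (52.2%) of them were assigned to the sense strand of miRNA genes. Reads that mapped to several loci, 26.2% and 25.7%, are given apart and belong to no gene. Levels are given as CPM, each gene's sense count scaled to a common total of sense counts. A count of 0 allows a level of up to 3 counts, which is 0.704 CPM in the first library and 0.528 CPM in the second. This limit is one-sided; intervals are exact two-sided Clopper-Pearson 95% intervals, whose upper end for 0 counts is 0.866 and 0.649 CPM. Both cover counting error only. CPM was not divided by hairpin length, because RNA under 30 nucleotides holds mature strands and not whole hairpins. The intestinal label was checked against marker miRNAs. All 9 epithelial genes reached 10 counts in each library and together held 9.07% and 10.8% of the counts, and Mir143 and Mir145a of smooth muscle held 17.99% and 17.3%. Of 6 early embryo and trophoblast miRNA genes 5 had an entry under the symbol looked up, and Mir292a had none. The 5 held 37 and 29 counts in all, with Mir290a at 0 in both libraries, Mir291a at 4 and 0, and Mir293 the highest at 15 and 20. An entry named Mir292, with 13 and 11 counts, was not looked up and is not in this sum. The liver miRNA Mir122 stood at 994 and 448 CPM. The 3 blood miRNA genes with an entry, of 4 looked up, summed to 1401 and 1209 CPM, and 3 pancreas genes to 1.64 and 4.75 CPM. The part of RNA from other tissues in the cluster's level was not tested.

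Few of the reads assigned to a single miRNA gene came from the cluster, and a handful of hairpins carried most of them. Reads that mapped to several loci are not part of these levels. Its 107 members together held 14877 counts in replicate 1 and 17873 in replicate 2. These are 0.349% (interval 0.343 to 0.355) and 0.315% (0.310 to 0.319) of all counts, or 0.332% ± 0.0244 (SD, n = 2). The intervals do not overlap, so on total counts the libraries differ by more than counting error. Total counts put every log2 ratio of replicate 2 to replicate 1 lower by 0.13 than the TMM scaling used further on. The share was not compared on TMM sizes. Mir467e, Mir467d and Mir467c alone held 80.2% and 81.4% of the cluster's counts, and the top 6 members, with Mir669o, Mir669l and Mir669c, held 98.7% and 99.0%. The 97 members below the top 10 held 35 and 23 counts between them.

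Most hairpins of the cluster had no reads assigned to them. At least 1 count in both libraries was found for 19 members, at least 3 counts for 11 and at least 10 counts for 10. Another 7 members had counts in only 1 library, and 81 (75.7%) had 0 in both. Among 1866 other genes, 18.1% reached 10 counts in each library and 63.0% were at 0 in both. The median level was 0 CPM in the cluster and over the other genes alike. Reads on the opposite strand at the members numbered 0 in both libraries.

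The Mir467 family held most of the counts assigned to single genes of the cluster. Mir467e (chr2:10505721-10505807) had 4390 and 5361 counts, or 1030.0 CPM (interval 999.8 to 1061) in replicate 1 and 944 CPM (919 to 969) in replicate 2. Mir467d (chr2:10507630-10507714) had 4024 and 5551 counts, or 944 CPM (915 to 974) and 977 CPM (952 to 1003). Mir467c (chr2:10473931-10474027) had 3512 and 3638 counts, or 824 CPM (797 to 852) and 640.4 CPM (619.8 to 662). These 3 genes ranked 97, 99 and 108 among the 1973 genes by mean CPM. Mir467e and Mir467d changed places between the libraries, whereas Mir467c was the lowest of the 3 in both.

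The other 11 Mir467 genes had few or no counts. Mir467b had 6 and 3 counts, Mir467a-1 had 2 and 0, and the other 9 Mir467a genes had 0 in both libraries. The family as a whole held 80.8% ± 0.853 of the cluster's counts (n = 2).

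The Mir669 family came next, with 18.6% ± 0.705 of the cluster's counts. Mir669o (chr2:10514300-10514395) had 1386 and 1493 counts, or 325 CPM (308 to 343) and 263 CPM (249.7 to 276.5). Mir669l (chr2:10468971-10469068) had 959 and 1118 counts, or 225 CPM (211 to 239.7) and 197 CPM (185 to 209). Mir669c (chr2:10509296-10509404) had 419 and 534 counts, or 98.3 CPM (89.1 to 108) and 94.0 CPM (86.2 to 102). The order Mir669o, Mir669l, Mir669c held in both libraries, with intervals that did not overlap within a library.

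Lower in the same family, Mir669e (chr2:10467495-10467613) had 55 and 59 counts, 12.9 and 10.4 CPM, and Mir669h (chr2:10518155-10518279) had 13 and 23 counts, 3.05 and 4.05 CPM. Mir669f had 4 and 2 counts. The other 14 Mir669 genes, Mir669b and Mir669i among them, were at 0 in both libraries.

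The Mir466 family, the largest of the named ones together with Mir669, held only 0.462% ± 0.107 of the cluster's counts. Mir466n (chr2:10513741-10513834) supplied most of them, with 62 and 61 counts, or 14.5 CPM (11.2 to 18.6) and 10.7 CPM (8.21 to 13.8). Mir466b-3 and Mir466h each had 5 and 1 counts, Mir466g had 3 and 1, and Mir466l had 2 and 1. A further 4 genes had counts in 1 library only, and 11 had 0 in both.

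Of the 5 Mir297 genes only Mir297a-2 (chr2:10472254-10472343) was detected, with 22 and 12 counts, or 5.16 CPM (3.23 to 7.82) and 2.11 CPM (1.09 to 3.69). The family's share of the cluster was 0.108% ± 0.0571. Of the 48 genes with no family name, 43 were at 0 in both libraries. Gm22925 had 1 and 5 counts, Gm22239 had 1 and 2, Gm25263 had 1 and 1, Gm25451 had 2 and 0, and Gm22072 had 0 and 2. All but the first lie at or under the limit of 3 counts in both libraries.

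**Figure D1:**
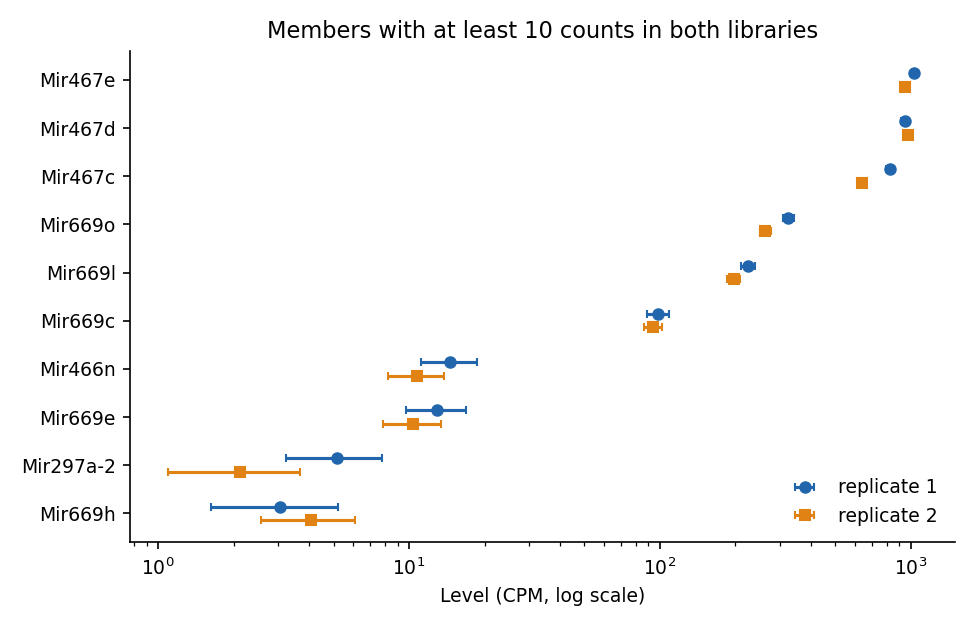
Levels of the 10 members with at least 10 counts in both libraries, on a log axis of CPM; points are replicate 1 (circles) and replicate 2 (squares), and bars are exact Clopper-Pearson 95% intervals of counting error. The 3 Mir467 genes sit between 640.4 and 1030.0 CPM, and the lowest members, Mir297a-2 and Mir669h, between 2.11 and 5.16 CPM.

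Neighbours in the order of levels were compared as ratios of their assigned counts within each library. Reads that mapped to several loci belong to no gene and are not in these ratios. Whether such reads took the same part from each gene was not tested. The ratios therefore order assigned counts and need not order the levels of the miRNAs. Mir467e to Mir467d was 1.09 in replicate 1 and 0.966 in replicate 2, so their order was not resolved. Mir467d stood above Mir467c by 1.15 and 1.53 times, Mir467c above Mir669o by 2.53 and 2.44 times, and Mir669o above Mir669l by 1.45 and 1.34 times. Each of these steps had the same direction in both libraries. Mir669l was 2.29 and 2.09 times Mir669c, and Mir669c was 6.76 and 8.75 times Mir466n, the widest gap between neighbours among the top 8. Mir466n and Mir669e (1.13 and 1.03 times) had intervals that overlapped in each library, and Mir297a-2 to Mir669h turned from 1.69 to 0.522.

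Some of the abundant members are close in sequence. The closest pairs share a family name, but not every pair within a family is close. The hairpins of Mir467e and Mir467d are 92.0% identical over 87 aligned columns, and those of Mir467e and Mir467c 83.7% over 98. Mir669o and Mir669l are 81.8% identical over 99 columns and share no run of 22 bases, whereas Mir467e shares 13 such windows with Mir467d and 27 with Mir467c. Mir669o is only 58.0% identical to Mir669h and 61.6% to Mir669e. Across family names, Mir669l is 76.2% identical to Mir466n, and Mir467e 75.0% to Mir297a-2. A read that lies wholly in a shared window cannot be placed at a single gene, and the tables report reads of several loci apart from the genes.

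A window of 22 bases, about the length of a mature miRNA, was looked up for every position of every hairpin in all annotated mouse miRNA hairpins on both strands. The rest of the genome was not searched. A unique window, or a window of a gene's own, is one found in no other annotated hairpin and need not be unique in the genome. Of the 107 members 105 shared at least 1 window with another gene, and for 78 of them every such gene lay inside Sfmbt2. No window of their own was left to 42 members (39.3%), against 12.2% of the 1787 other genes. These 42 held 2 counts in replicate 1, all from Mir467a-1, and 0 in replicate 2. The same 42 was reached with windows of 20 and of 18 bases.

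Identical copies make up most of that group. In 15 sets, 38 members have a hairpin that is letter for letter that of another member: 11 pairs, 3 triples and 1 set of 7, formed by Gm25022 and 6 Mir467a genes. All 38 had 0 counts in both libraries, and none has an identical hairpin outside the cluster. For these genes 0 says only that no read was assigned to them. The reads that mapped to several loci were 154 and 156 times as many as all counts of the cluster, and which loci they came from is not recorded in the tables.

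Most members with a window of their own were also at or near 0. Of the 65 members with at least 1 unique window, 10 had at least 10 counts in both libraries and 40 had 0 in both. The 10 detected members had 36.2% to 96.9% of their windows to themselves: Mir669e had 95 of 98, Mir669c 73 of 88, Mir467e 39 of 66 and Mir467d 25 of 64. This share differed between the members whose ratios are given above, and its part in those ratios was not tested. Other hairpins with as many unique windows had few or no counts. Mir669b, with 68 of 76 unique windows, had 0 counts in both libraries, as did Gm23578 with 77 of 83, while Mir466g and Gm22239, with every window unique, had 3 and 1 and 1 and 2 counts.

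The 2 strands of a hairpin can differ in this. In Mir297a-2 all 25 unique windows lie on the 3′ side of the hairpin and 0 on the 5′ side. Mir467d has 19 on the 5′ side and 6 on the 3′ side, and Mir467e has 20 and 19.

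Counts assigned to single members also differed along the intron. The 10 Mir467a genes recur at a median of 2462 bases from start to start, and the stretch from the first to the last of them (chr2:10476346-10503355, 27.0 kb, bounds chosen after the values were seen) holds 55 members. Those 55 had 10 and 3 counts in all, and 40 of them, the Mir467a genes that set the bounds included, had no window of their own. The 20 members before the stretch, over 10.3 kb, had 4554 and 4835 counts, or 28.8% ± 2.52 of the cluster. The 32 members after it, over 14.7 kb, had 10313 and 13035 counts, or 71.1% ± 2.55. Members with at least 10 counts in both libraries numbered 4 before, 6 after and 0 within; 3 members within had any count, with Mir467b the highest at 6 and 3. The part of the shared windows in this pattern was not tested.

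**Figure D2:**
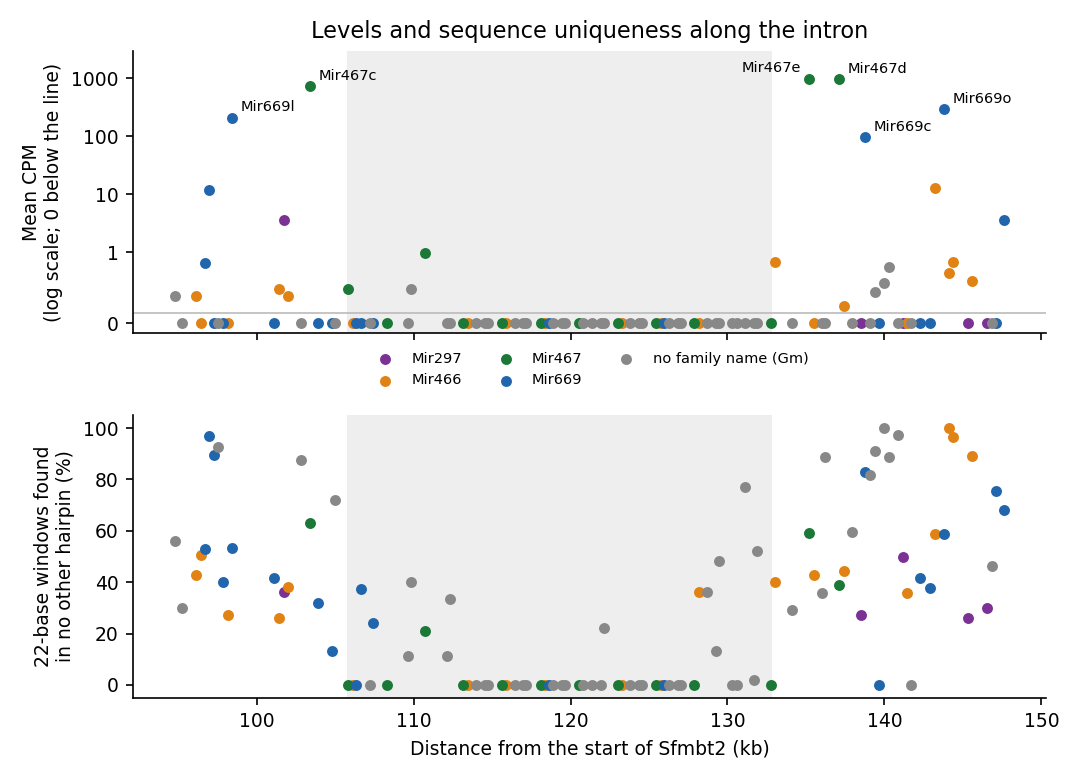
Mean CPM of each of the 107 members (top, log axis with 0 drawn below the line) and the percentage of its 22-base windows found in no other annotated hairpin (bottom), against the distance from the start of Sfmbt2 in kb, coloured by family; the grey band runs from the first to the last Mir467a gene. The band holds 55 members with 10 and 3 counts in all, and the abundant Mir467 and Mir669 genes stand on both sides of it.

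The hairpins share a composition that the choice by position did not use. The steps TG, GT, CA and AC made up a median of 48.6% of the dinucleotide steps in members, from 32.5% to 66.7%, and 26.6% in other genes. Those other genes include the 10 of the same families outside Sfmbt2, which had from 37.0% to 76% of such steps, so the composition is not particular to the cluster. The word TGTGTG occurred in 98 members (91.6%) and CACACA, its reverse complement, in 87 (81.3%), both read on the hairpin strand, against 12.7% and 8.06% of the other genes. Both words stood in 82 members (76.6%) and in 5.43% of the others. GC content had a median of 38.3% in members and 52.0% elsewhere.

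Members with and without counts overlapped in these measures. The 10 members with at least 10 counts in both libraries had a median of 49.4% of such steps, and 7 of them held both words. The 40 members with a unique window and 0 counts had a median of 45.5%, and 30 of them held both words. Predicted minimum free energy per 100 bases of hairpin had a median of -40.2 kcal/mol in the 10 detected members, -34.4 in those 40 and -38.2 in the 42 with no window of their own, against -37.3 over all members. The ranges of the detected members (-57.3 to -26.3) and of those 40 (-48.4 to -20.9) overlapped.

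**Figure D3:**
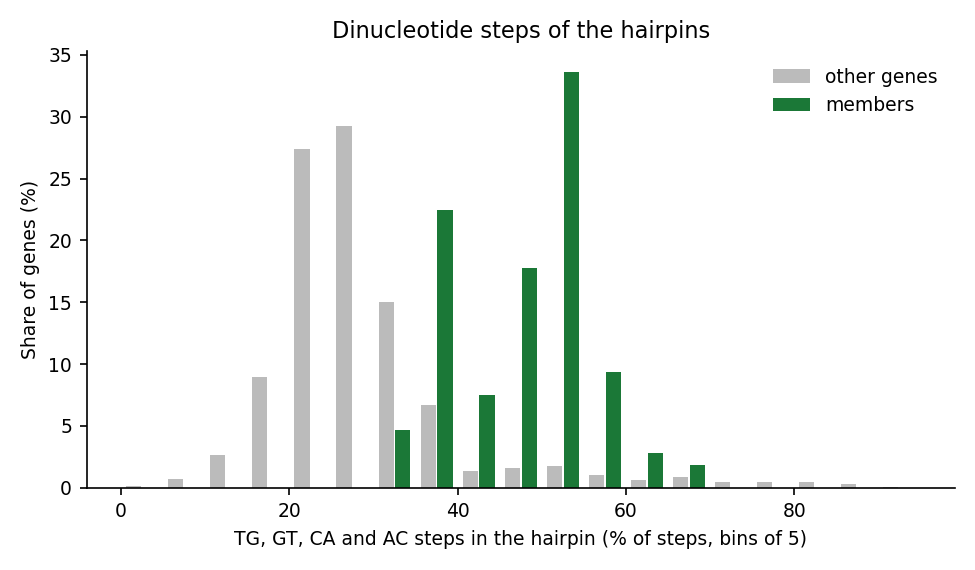
Share of genes (%) by the percentage of TG, GT, CA and AC steps in the hairpin, in bins of 5 percentage points, for the 107 members (green) and 1787 other miRNA genes (grey). The fullest bin of the members is 50 to 55% (33.6% of members) and that of the other genes 25 to 30% (29.3%).

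Genes of the same families elsewhere in the genome had no counts. The 10 that have an entry, Mir297-1, Mir466f-4, Mir466i, Mir466j, Mir466k, Mir466q, Mir467f, Mir467g, Mir467h and Mir669n, had 0 counts in both libraries. Each has windows found in no other annotated hairpin, from 22 of 55 in Mir297-1 to 33 of 33 in Mir669n. Whether those windows occur elsewhere in the genome was not tested. All counts under the 4 family names came from within Sfmbt2.

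For scale, the distal miRNA cluster of the imprinted Dlk1-Dio3 locus held 3.99% ± 0.275 of all counts over 33 genes, of which 28 reached 10 counts in each library and 1 had no window of its own. Its top gene, Mir411, stood at 9837 and 9161 CPM, above the sum of all Sfmbt2 members (3491 and 3146 CPM). The embryonic miR-290 and miR-302 clusters, 11 genes with an entry under the symbols looked up, summed to 112 ± 13.5 CPM, with Mir302a the highest at 40.6 and 37.5 CPM. The entry named Mir292, with 13 and 11 counts, is not in that sum.

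The replicates were compared gene by gene with an exact conditional binomial test on TMM-scaled counts, adjusted by Benjamini-Hochberg over 364 genes with at least 20 counts summed. With 1 library on each side it asks whether 2 libraries differ beyond counting error and says nothing of a condition. Of all genes tested 51.9% were called. The 10 detected members were the members that could be tested, and 4 of them were called, in either direction a share not above that of all genes. Of these 4, 1 was higher in replicate 2 (24.5% of all genes) and 3 were higher in replicate 1 (27.5%). The median log2 ratio was -0.12 in the 10 members and -0.02 over all genes tested.

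The abundant members differed by little between the libraries. CPM uses total counts and the test TMM scaling, so the 2 scales give different ratios. Mir467d, at 944 and 977 CPM in replicates 1 and 2 (log2 ratio 0.05 on that scale), was higher in replicate 2 with a TMM log2 ratio of 0.18 (counting SE 0.0299, adjusted p = 8.37e-09 by the exact binomial test). Mir467c, at 824 and 640.4 CPM (log2 ratio -0.36), was lower in replicate 2 with a TMM log2 ratio of -0.23 (SE 0.0341, adjusted p = 3.71e-11, exact). Mir669o had a TMM log2 ratio of -0.18 (adjusted p = 0.00264, exact). Mir467e did not pass the test (TMM log2 ratio 0.00, adjusted p = 0.961, exact).

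Of the lower members Mir297a-2 passed, on 22 and 12 counts, with a TMM log2 ratio of -1.13 (SE 0.509, adjusted p = 0.0481, exact), and it was the only member called that differed by at least 1.5-fold. Of all genes tested 11% did so. This call was lost with DESeq2 size factors (adjusted p = 0.0670, exact), which called 54.1% of all genes and 3 members. It was also lost over all genes with at least 1 count (adjusted p = 0.0912, exact), of which 25% were called, and Mir297a-2 was not tested at a minimum of 100 counts, where 59.9% were called. The other 3 members were called at both minimums. The TMM log2 ratios of Mir669l (-0.06), Mir669c (0.06), Mir466n (-0.31), Mir669e (-0.18) and Mir669h (0.51) did not pass. With total counts as the scale every log2 ratio was 0.13 lower: Mir467d was then not called (log2 0.05), and Mir467e (-0.13) and Mir669l (-0.19) were called as lower in replicate 2, which made 5 members. That scaling called 57.7% of all genes, 45.1% as lower in replicate 2.

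**Figure D4:**
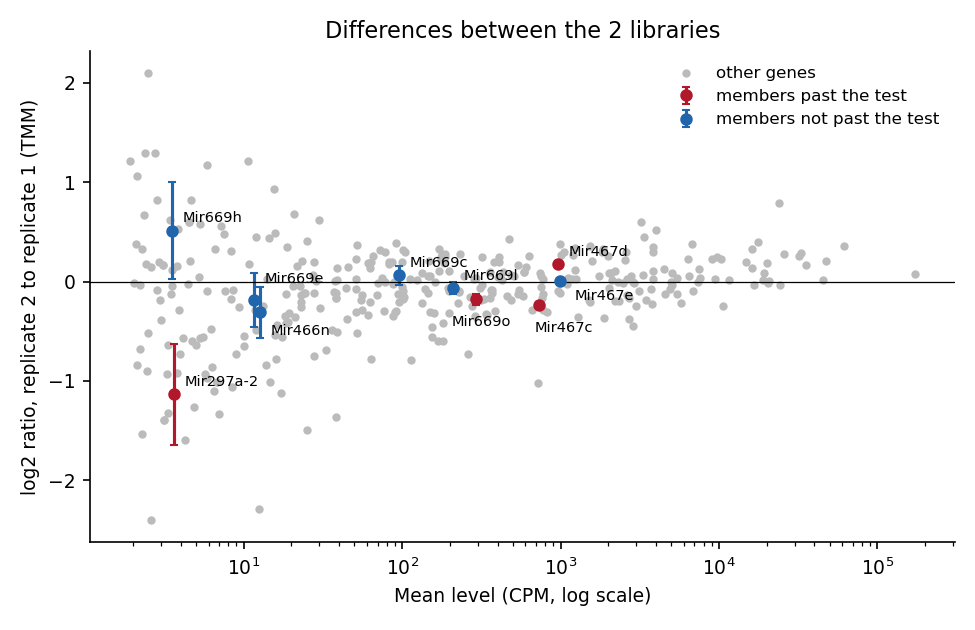
Log2 ratio of replicate 2 to replicate 1 after TMM scaling, against mean CPM on a log axis, for the 364 genes tested; grey points are other genes, red and blue points are members that did and did not pass the exact binomial test, and bars are counting SEs. The Mir467 genes lie between -0.23 and 0.18 in log2, and Mir297a-2 at -1.13 is the member farthest from 0.

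The 12 miRNA genes of the intron that have no entry, Mir466b-1, Mir466c-1, Mir466e and the 9 genes from Mir669a-4 to Mir669a-12, were not analysed here.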

How the data were processed

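MicroRNA-seq was made from 2 pools of E16.5 mouse intestine, per the labels. Per the readme files, the authors' deposited tables hold raw counts of reads for miRNA genes (mm10, GENCODE release M4). Which aligner and counter made them is not given in the sources used here. A table has 3 unnamed columns of counts and 4 entries that name no gene, which were left out of totals; the column on the strand of the gene was identified by its values. Positions and hairpins were taken from GENCODE M21 (mm10), which holds 1894 of the 1973 identifiers. The members and lists were chosen with earlier results of these data known.

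Counts were scaled to CPM. Members named are the 15 with the highest mean CPM, the top member of each family, all past the replicate test, the same-family genes outside Sfmbt2 (5 by rule; all 10 were at 0) and the top gene of each list; other members were named after their values were seen, to account for each count. A comparison planned on identical mature sequences was made on hairpin windows of 22 bases instead, since 0 members were matched in the mature table. edgeR's quasi-likelihood test needs replicates on each side of a contrast, so libraries were compared by exact conditional binomial tests, two-sided. These used TMM sizes from edgeR 4.0.16 over genes with at least 20 counts summed and a prior of 0.5 counts for log2 ratios. The binomial test was tried on simulated data. Folding used RNAfold 2.7.2; other tools were DESeq2 1.42.0, R 4.3.3, Python 3.11.15 and scipy 1.17.1. Alternatives were unstranded counts, other denominators, count minimums and scalings, each library alone, and windows of 20 and 18 bases. The labels name separate biological replicates, and p-values measure counting error between these libraries.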

Additional observations from a re-analysis of the deposited data

How the results depend on the processing

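The cluster's share of all counts, 0.332%, became 0.402% when the most abundant gene was left out of the total and 0.167% of all reads, unmapped and multi-mapped ones included. It ranged from 0.315% to 0.349% over single libraries. Detected members numbered 19 with at least 1 count in both libraries, 11 with at least 3 and 10 with at least 10, and 22 to 23 in single libraries. Without Mir467e the share of Mir467 fell to 72.7%, that of Mir669 was 26.4% and that of Mir466 0.657%. In single libraries the shares ranged from 80.2% to 81.4% for Mir467, 18.1% to 19.1% for Mir669, 0.386% to 0.538% for Mir466 and 0.0671% to 0.148% for Mir297. Of the 4 members that differed between the replicates 1 was left with a 1.5-fold minimum; total counts gave 5, and DESeq2 size factors and minimums of 1 and of 100 counts summed gave 3 each. The log2 ratio of Mir467e turned from 0.00 to -0.13 with total counts, by the shift that this scaling gives every gene. Unstranded counts moved no share or number of members past its spread. The members had 0 reads on the opposite strand, so only the total grew and all their levels fell in nearly the same proportion. Among the 15 members with the highest mean CPM this passed the spread for Mir467d (961 to 925 CPM) and Mir669c (96.2 to 92.6 CPM), whose libraries were close. No paired analysis was possible because both libraries form 1 group with no contrast. Depth limits the lower members: below 3 counts, 0.704 and 0.528 CPM, absence and a low level cannot be told apart.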

Other observations

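Outside the cluster, 8 genes without a 22-base window of their own did hold counts. For 5 of them, Mir30e (64544 and 98756 counts in replicates 1 and 2), Mir451a (1873 and 1857), Mir539 (330 and 413), Mir299b (14 and 15) and Mir873a (1 and 2), the only gene that shares the windows overlaps them at the same locus. The other 3, Gm23935 (552 and 679), Gm24245 (6 and 19) and Gm24270 (0 and 1), share their windows with copies elsewhere and held 558 and 699 counts in all. In the Sfmbt2 cluster the 42 such members held 2 and 0 counts. These genes were named after their values were seen.

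The copies within the cluster also cross the naming. Of the 48 members with a Gm symbol 21 belong to a set of identical hairpins, and 4 of these are identical to a gene with a family name: Gm25022 to Mir467a genes, Gm25943 to Mir466b-4 and Mir466b-6, Gm26092 to Mir669a-1, and Gm25285 to Mir466c-2. The 107 members have 84 distinct hairpin sequences.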
